A study of Arachis hypogaea with 30 samples.

Results

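The genes described here are annotated as glutathione S-transferases, Ah20g111800, Ah01g069800 and Ah13g246900, and were followed through salt treatment in seedlings of cultivated peanut (Arachis hypogaea, a legume whose nucleus holds a pair of subgenomes). They are 3 of the 82955 genes in the deposited table and 3 of the 165 annotated as glutathione S-transferases. They were chosen by their measured levels, which were strongly higher in salt than in water, Ah20g111800 from an already high level and the other two from near 0. Their change from 0 h is therefore described below with no test, and what was tested is the difference between the cultivars at each time. Messenger RNA captured through its poly(A) tail was sequenced from whole hydroponic seedlings at the 3-leaf stage, in 10 groups of 3 biological replicates, which gives 30 libraries. The cultivar HY33, tolerant of salt per the labels, and the cultivar HY9115, sensitive to it, were each sampled from water at 0 h and after 3, 12, 24 and 48 h in 100 mM NaCl. No group stayed in water past 0 h, so the effects of salt, of hours elapsed and of the time of day cannot be told apart. The sources used here do not say whether replicates were separate plants or pools, so each p-value reflects the spread among these libraries and that spread may be technical.

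Glutathione S-transferases join the sulphur-containing tripeptide glutathione to reactive or toxic molecules, which makes these easier to move into the vacuole. In plants the enzymes form a large family, and several members also reduce peroxides with glutathione or bind hormones and pigments. The tau and phi classes are specific to plants and are known for strong induction by herbicides, auxin, heavy metals and drought. The conjugates are carried into the vacuole by ABCC transporters, and glutathione is kept reduced by glutathione reductase.

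All 3 genes carry the orthology term K00799 and the molecular function glutathione transferase activity. Ah20g111800 lies on chromosome 20 from 12165287 to 12166804 on the minus strand, and its exons cover 1021 bases. Its annotation adds defence response, response to cadmium and zinc ions, catabolism of toxins and glutathione peroxidase activity. Ah01g069800 lies on chromosome 1 from 8086241 to 8087755 on the plus strand with 1117 exonic bases, and Ah13g246900 on chromosome 13 from 31333114 to 31334297 on the minus strand with 1070. These both carry the processes auxin-activated signalling and glutathione metabolism. Coordinates are those of the deposited table, and the build is not given in the sources used here.

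Levels are given as FPKM, the fragments per length of exon and per total counted reads that the authors deposited, which can be compared between genes. Ah20g111800 was abundant before salt and was at its highest in both cultivars at 48 h. In HY33 its 3 libraries stood at 536.41, 483.18 and 437.47 FPKM at 0 h, 736.21, 828.34 and 721.62 at 3 h, 2218.75, 2479.76 and 2631.78 at 12 h, 3633.69, 3717.81 and 3648.6 at 24 h, and 8861, 8394.61 and 7968.37 at 48 h. In HY9115 they stood at 663.8, 740.7 and 617.41 FPKM at 0 h, 1631.86, 1381.74 and 1321.25 at 3 h, 3047.63, 3177.38 and 4320.12 at 12 h, 2815.2, 2825.63 and 2418.97 at 24 h, and 6727.81, 7575.36 and 6593.42 at 48 h. In HY33 every later time lay above the earlier one in all libraries, whereas in HY9115 all 3 libraries at 24 h lay below all 3 at 12 h.

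The mean of Ah20g111800 was 486 ± 49.5 FPKM (SD, n = 3) in HY33 at 0 h and 8408 ± 446 at 48 h. The fitted log2 change from 0 h in HY33 was 0.62 ± 0.12 (SE) at 3 h, 2.43 ± 0.12 at 12 h, 3.04 ± 0.13 at 24 h and 4.49 ± 0.14 at 48 h, the last a 22.5-fold higher level. In HY9115 the mean was 674 ± 62.3 FPKM at 0 h and 6966 ± 532 at 48 h. The log2 changes there were 1.12 ± 0.12, 2.51 ± 0.12, 2.06 ± 0.12 and 3.63 ± 0.13 at the same times, and the last is a 12.4-fold higher level. Fitted changes here and below rescale each library (TMM), so these 48 h folds exceed the ratios of the FPKM means. Scaled by total counts, the 48 h changes were 4.11 in HY33 and 3.37 in HY9115. In bulk tissue a change in the number of cells of a type and a change in RNA per cell cannot be told apart.

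Ah20g111800 alone took 0.0496% of all counts in HY33 at 0 h and 0.858% at 48 h, and in HY9115 0.0688% and 0.711%. Ranked by count, it was between 79th and 109th of all genes in the HY33 libraries at 0 h and 4th in each of them at 48 h. In HY9115 it ranked between 53rd and 72nd at 0 h and 1st or 2nd at 48 h. Among the annotated glutathione S-transferases it had the highest mean FPKM in all 10 groups.

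Ah01g069800 was near 0 in water and passed 100 FPKM in every salt library from 12 h on. In HY33 its libraries stood at 1.11, 0.84 and 1.32 FPKM at 0 h, 14.4, 10.52 and 11.86 at 3 h, 123.85, 123.29 and 115.51 at 12 h, 170.2, 186.5 and 182.19 at 24 h, and 138.79, 149.6 and 161.85 at 48 h. In HY9115 they stood at 1.44, 0.96 and 1.52 FPKM at 0 h, 32.47, 22.31 and 27.95 at 3 h, 169.42, 183.51 and 194.29 at 12 h, 110.59, 138.32 and 110.25 at 24 h, and 304.24, 335.86 and 378.1 at 48 h. The cultivars followed opposite courses between 12 and 48 h. HY33 was highest at 24 h and lower at 48 h, and HY9115 was lower at 24 h and highest at 48 h, with no overlap between libraries at successive times in either.

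The 0 h groups of Ah01g069800 held 60 counts over 3 libraries in HY33 and 70 in HY9115, so its fold changes rest on few reads at the base. The fitted log2 change in HY33 was 3.44 ± 0.20 (SE) at 3 h, 6.88 ± 0.17 at 12 h, 7.47 ± 0.17 at 24 h and 7.46 ± 0.17 at 48 h. In HY9115 it was 4.41 ± 0.18, 7.24 ± 0.17, 6.57 ± 0.17 and 8.27 ± 0.17. The largest of these, at 48 h in HY9115, is a 309-fold higher level.

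Ah13g246900 was also near 0 in water, and in HY33 it was still there after 3 h of salt. Its HY33 libraries stood at 0.18, 0.35 and 0.53 FPKM at 0 h, 0.19, 0 and 0.15 at 3 h, 90.9, 92.45 and 104.19 at 12 h, 65.05, 63.93 and 63.19 at 24 h, and 95.09, 106.87 and 87.07 at 48 h. Its HY9115 libraries stood at 0.33, 0.29 and 0.24 FPKM at 0 h, 12.32, 16.08 and 12.72 at 3 h, 66.96, 70.74 and 83.22 at 12 h, 49.39, 47.45 and 37.35 at 24 h, and 62.55, 76.75 and 61.42 at 48 h. At 3 h all HY9115 libraries were above 12 FPKM while no HY33 library passed 0.19, and by 12 h the HY33 libraries were the higher ones.

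The 3 HY33 libraries at 3 h held 3, 0 and 3 counts of Ah13g246900, a total of 6, against 732 in HY9115. The 0 h groups held 19 and 15 counts. The fitted log2 change in HY33 was −1.63 ± 0.72 (SE) at 3 h, where the libraries overlapped those at 0 h, and then 8.12 ± 0.22 at 12 h, 7.55 ± 0.22 at 24 h and 8.40 ± 0.21 at 48 h. In HY9115 it was 5.53 ± 0.27, 8.06 ± 0.23, 7.28 ± 0.24 and 8.06 ± 0.23. Between 3 and 12 h in HY33 the mean went from 0.113 ± 0.1002 FPKM to 95.8 ± 7.27, a ratio of 846 on 6 counts at the base.

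**Figure D1:**
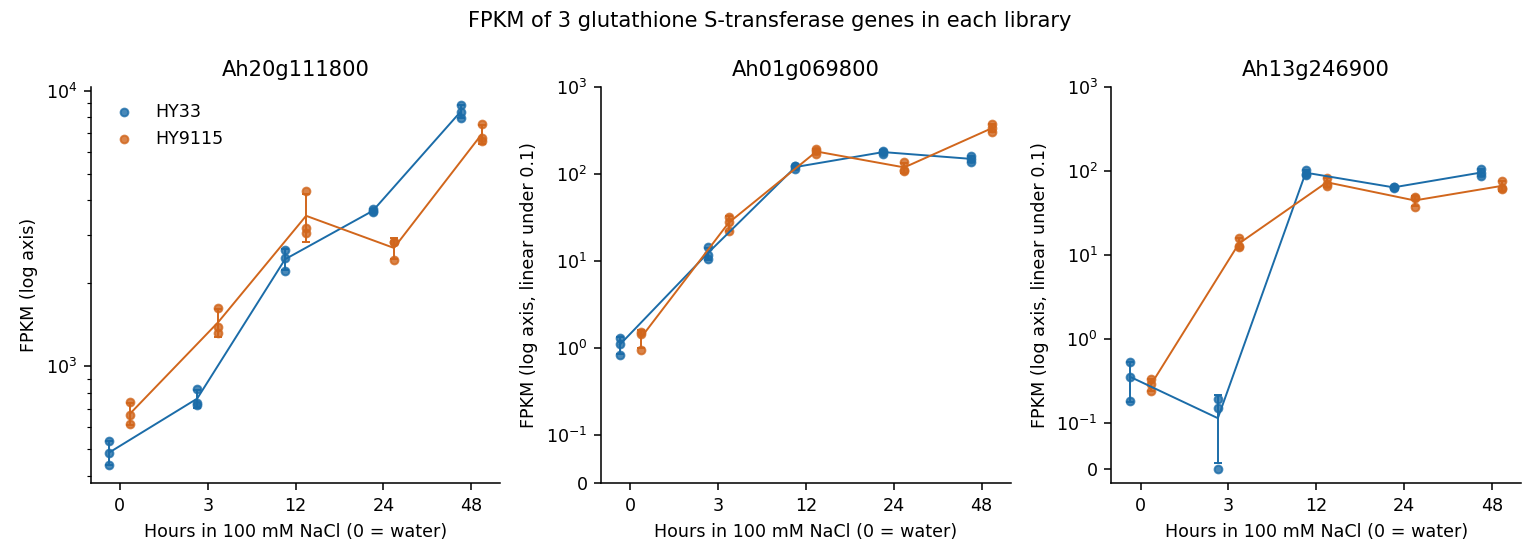
FPKM of the 3 genes by hours in 100 mM NaCl (0 h is water) on a log axis (linear under 0.1 for Ah01g069800 and Ah13g246900), with 1 point per library, a line through the group means of each cultivar and bars of 1 SD (n = 3). Ah20g111800 goes from 486 to 8408 FPKM in the HY33 means, and Ah13g246900 in HY33 at 3 h stays at 0 to 0.19 FPKM while HY9115 stands at 12.32 to 16.08.

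Set in order, the 10 group means of Ah20g111800 ran from HY33 at 0 h to HY33 at 48 h. In that order the libraries overlapped between HY9115 at 0 h and HY33 at 3 h, between HY33 at 12 h and HY9115 at 24 h, or between HY9115 at 12 h and HY33 at 24 h. For Ah01g069800 the order ran from HY33 at 0 h to HY9115 at 48 h, and 3 neighbouring pairs overlapped. These were the 0 h groups, HY9115 at 24 h with HY33 at 12 h, and HY33 at 24 h with HY9115 at 12 h. For Ah13g246900 the lowest group was HY33 at 3 h and the highest were HY33 at 12 and 48 h, which overlapped. The 0 h groups of Ah13g246900 overlapped too, as did HY33 at 24 h with HY9115 at 48 h, and HY9115 at 48 h with HY9115 at 12 h.

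Between 12 and 24 h the cultivars took different courses. In HY9115 the means of all 3 genes were lower at 24 h, at 0.764 of the 12 h level for Ah20g111800, 0.656 for Ah01g069800 and 0.607 for Ah13g246900. In HY33, Ah20g111800 was 1.50 times and Ah01g069800 1.49 times its 12 h mean, while Ah13g246900 stood at 0.668 of it. In each of these 6 steps the libraries of the 2 times did not overlap. The share of all genes without such overlap was not computed, so this cannot be called particular to the 3 genes. The steps themselves were not tested.

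The tested comparison set HY33 against HY9115 at the same hour with edgeR's quasi-likelihood test, with p adjusted by the Benjamini-Hochberg method over all 42311 genes tested. A gene is called where the adjusted p is under 0.05 and the log2 difference is at least 1. In 15 tests, 3 genes at 5 times, 13 had an adjusted p under 0.05, and 3 of these also reached a log2 difference of 1. An adjusted p under 0.05 at any size was given to 24.9% of all genes at 0 h, 22.4% at 3 h, 14.6% at 12 h, 29.4% at 24 h and 40.3% at 48 h. The full call was given to 5.71% of genes at 0 h, 5.85% at 3 h, 3.76% at 12 h, 5.16% at 24 h and 9.02% at 48 h.

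At 3 h all 3 genes were lower in HY33. Ah13g246900 differed by a log2 of −6.85 ± 0.32 (SE, adjusted p = 4.7e-18), and Ah01g069800 by −1.21 ± 0.13 (adjusted p = 3.4e-09), a 2.31-fold higher level in HY9115. Both were called lower in HY33, as were 3.78% of all genes at 3 h. Ah20g111800 differed by −0.96 ± 0.12 (adjusted p = 1.2e-07), under the size needed for a call. The value of Ah13g246900 depends on the scale, since its HY33 libraries hold 6 counts in all, and limma on log2(FPKM + 1) put it at −3.72.

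At 0 h only Ah20g111800 passed the p threshold, at −0.46 ± 0.12 (adjusted p = 0.0036), with the means of 486 FPKM in HY33 and 674 in HY9115. Ah01g069800 gave −0.24 ± 0.29 (adjusted p = 0.60) and Ah13g246900 gave 0.31 ± 0.58 (adjusted p = 0.75). For both, the libraries of the cultivars overlapped at 0.18 to 1.52 FPKM, and no difference was detectable at this depth.

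At 12 h the genes no longer shared a direction. Ah20g111800 was lower in HY33 by −0.53 ± 0.12 (adjusted p = 0.0014) and Ah01g069800 by −0.60 ± 0.11 (adjusted p = 9.6e-05). The difference of Ah20g111800 was −0.33 (adjusted p = 0.044) without HY9115 replicate 3, its highest library at 12 h with 4320.12 FPKM. Ah13g246900 was higher in HY33 by 0.37 ± 0.11 (adjusted p = 0.023). That last p rises to 0.051 when only the 6 libraries at 12 h are fitted. Without HY33 replicate 3 the difference was 0.29 (adjusted p = 0.13), without HY9115 replicate 1 it was 0.30 (adjusted p = 0.11), and without HY9115 replicate 2 it was 0.34 (adjusted p = 0.087).

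At 24 h all 3 genes were higher in HY33. The log2 differences were 0.52 ± 0.12 for Ah20g111800 (adjusted p = 0.0011), 0.65 ± 0.11 for Ah01g069800 (adjusted p = 1.7e-05) and 0.58 ± 0.12 for Ah13g246900 (adjusted p = 0.00027). These are differences of 1.43, 1.57 and 1.50-fold, all under the size needed for a call, and no library of one cultivar overlapped those of the other. How common such a lack of overlap is among all genes was not computed.

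At 48 h Ah01g069800 had the opposite sign to the other two. It was lower in HY33 by −1.05 ± 0.11 (adjusted p = 1.5e-09), with 150.1 ± 11.5 FPKM in HY33 against 339 ± 37.1 in HY9115, and was called lower, as were 3.06% of all genes. Without HY9115 replicate 3 the difference was −0.98, just short of a call. Ah20g111800 was higher in HY33 by 0.40 ± 0.12 (adjusted p = 0.0070) and Ah13g246900 by 0.65 ± 0.11 (adjusted p = 2.7e-05). With limma on log2(FPKM + 1) the difference of Ah20g111800 was 0.27 (adjusted p = 0.067).

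**Figure D2:**
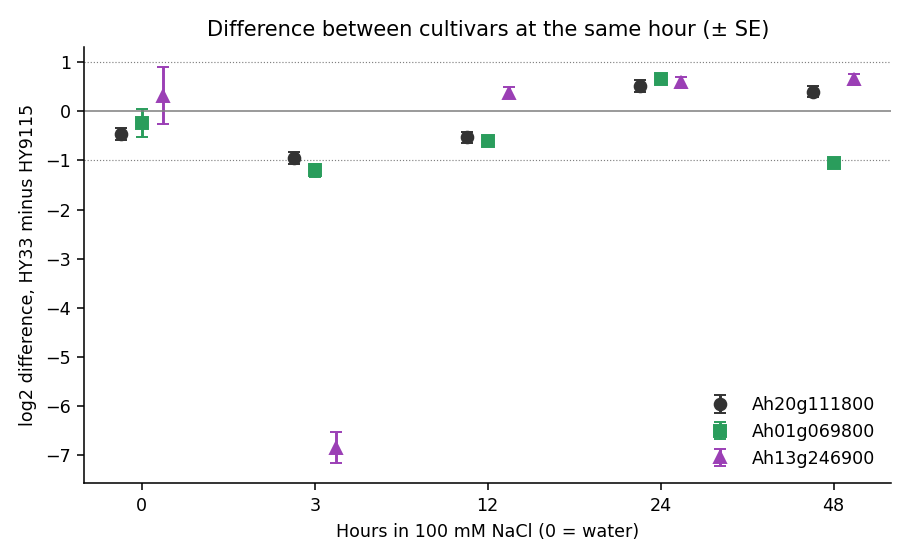
Fitted log2 difference between HY33 and HY9115 for the 3 genes at 0, 3, 12, 24 and 48 h, with bars of 1 SE and lines at 0 and at the size needed for a call. All 3 genes are below 0 at 3 h and above 0 at 24 h, and at 48 h Ah01g069800 alone is below 0.

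Set against its own 0 h level, Ah13g246900 differed most between the cultivars at 3 h. The HY33 change minus the HY9115 change there was −7.16 ± 0.84 (SE, log2), against −0.97 ± 0.32 for Ah01g069800 and −0.49 ± 0.17 for Ah20g111800. At 12 h these differences were −0.07 ± 0.17 for Ah20g111800, −0.36 ± 0.32 for Ah01g069800 and 0.06 ± 0.70 for Ah13g246900. At 24 h they were 0.98 ± 0.17, 0.89 ± 0.31 and 0.27 ± 0.63 in the same order. At 48 h they were 0.86 ± 0.17 for Ah20g111800, −0.81 ± 0.32 for Ah01g069800 and 0.34 ± 0.63 for Ah13g246900. They use the change for which the genes were chosen and all times share the 0 h libraries, so no p is given.

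Each gene was set beside an annotated glutathione S-transferase on the counterpart chromosome of the other subgenome, in the usual peanut numbering, with the same annotation terms. These 3 partners, Ah10g075400, Ah11g028800 and Ah03g219000, were picked after their values were seen. How similar their sequences are was not examined, and reads shared by near-identical copies may have been split between them or lost.

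Ah10g075400 (chromosome 10, 6750478 to 6752644) was the second most abundant glutathione S-transferase over all libraries. Its mean ran from 208.5 ± 33.9 FPKM (SD, n = 3) at 0 h to 4391 ± 233 at 48 h in HY33 and from 220.1 ± 20.7 to 2922 ± 235 in HY9115. Ah20g111800 stayed at 1.85 to 3.08 times its level in every library. Its cultivar difference was −0.84 (adjusted p = 9.4e-06) at 3 h, 0.78 (adjusted p = 3.4e-05) at 24 h and 0.71 (adjusted p = 6.2e-05) at 48 h, with the same signs as Ah20g111800. At 0 h it was −0.07 (adjusted p = 0.77) and at 12 h −0.25 (adjusted p = 0.22), times at which Ah20g111800 passed the p threshold, lower in HY33. Whether the 2 genes differ in this was not tested. Of the 5 other genes with the same terms as Ah20g111800, Ah10g075400 included, 3 rose and 1 fell at 48 h in HY33. In HY9115 3 rose and 2 fell. Of all genes at 48 h, 14.3% rose and 20.1% fell in HY33, and 14.5% and 21.3% in HY9115. Ah07g048000, among the 5, fell in both, with log2 changes of −1.79 and −2.22.

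Ah11g028800 (chromosome 11, 2670927 to 2674294) has a short annotated exon length of 375 bases. It stood at 6.33 ± 1.51 FPKM at 0 h and 70.5 ± 2.05 at 48 h in HY33, and at 4.96 ± 0.696 and 169.5 ± 9.04 in HY9115. At 48 h it was called lower in HY33, at −1.14 ± 0.10 (adjusted p = 7.4e-11), like Ah01g069800. Ah01g069800 stood at 0.138 times its level in 1 library and at 2.61 times in another, the extremes of all 30.

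Ah03g219000 (chromosome 3, 29626749 to 29628613) was at a higher level at 0 h than Ah13g246900, which had 3 to 10 counts in a library there. Its mean was 10.5 ± 2.27 FPKM at 0 h and 7.57 ± 0.0451 at 3 h in HY33, and 17.5 ± 1.75 and 23.6 ± 2.03 in HY9115. From 12 h on the pair stood at like levels, with Ah13g246900 at 1.19, 0.979 and 1.07 times the mean of Ah03g219000 at 12, 24 and 48 h in HY33. In HY9115 these ratios were 0.952, 1.01 and 0.921. At 3 h Ah03g219000 too was called lower in HY33, at −1.67 ± 0.15 (adjusted p = 1.9e-10). Its own change from 0 h was not called at 3 h in either cultivar, and it rose at 12, 24 and 48 h in both. Ah03g219100, also on chromosome 3 and with the same terms, had means of 13.8 to 26.3 FPKM over the 10 groups and was not called in any comparison with 0 h or between cultivars.

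**Figure D3:**
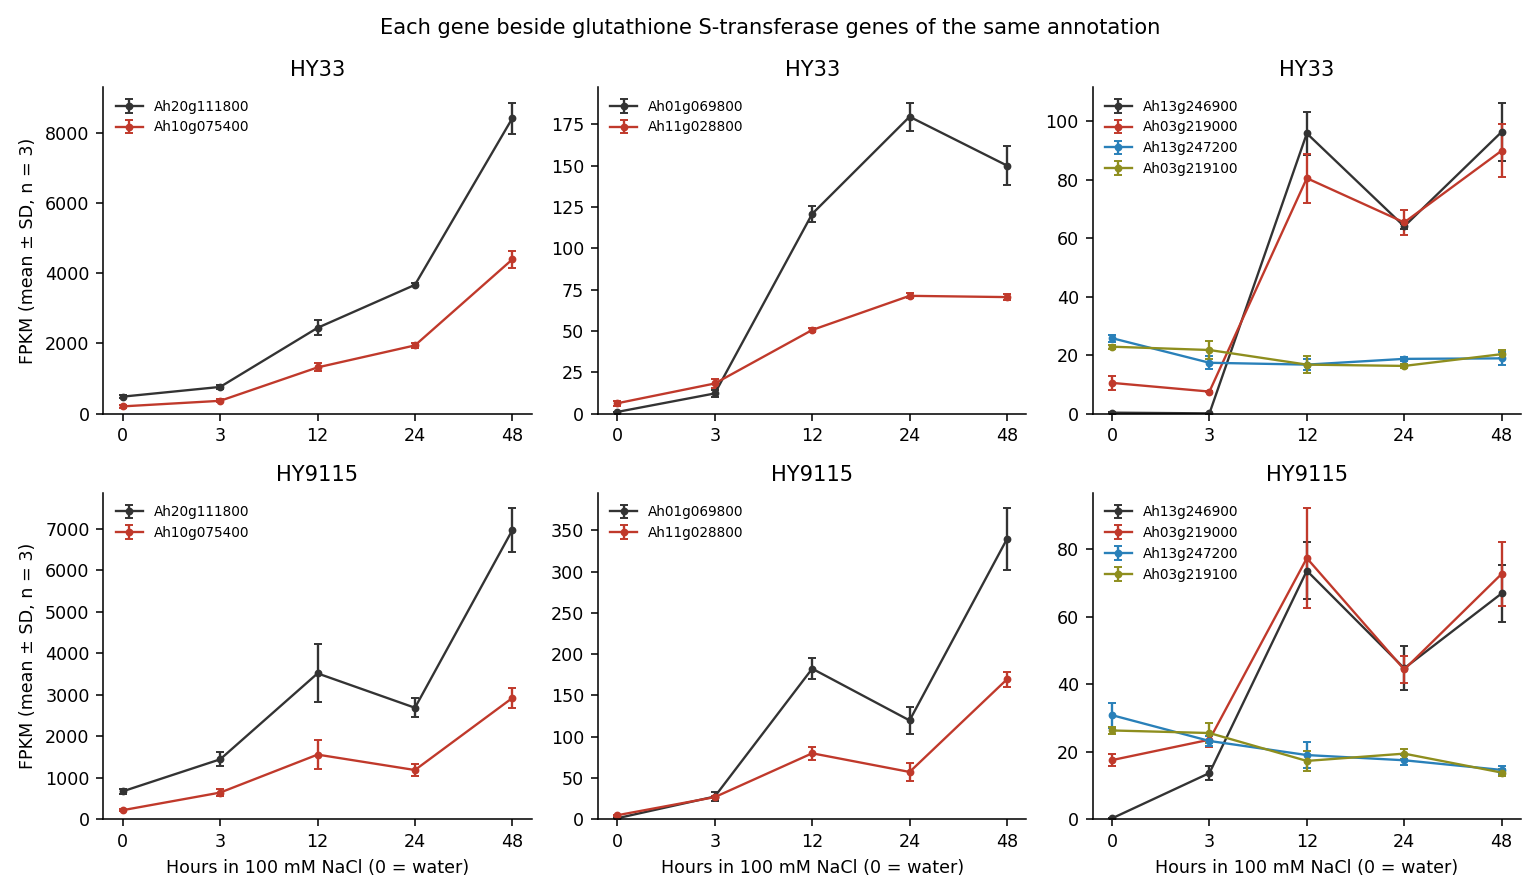
Group mean FPKM (linear axis, bars of 1 SD, n = 3) of each of the 3 genes and of its partner on the counterpart chromosome, by hours in 100 mM NaCl, with HY33 above and HY9115 below; Ah13g247200 and Ah03g219100 are added beside Ah13g246900. Ah20g111800 lies above Ah10g075400 at every time, and Ah13g246900 starts below Ah03g219000 at 0 h and stands at a like level from 12 h on.

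Among the 20 annotated genes on each side, 2 glutathione S-transferases were found. Ah13g247200, on chromosome 13 from 31352693 to 31355343, lies 18396 bases from Ah13g246900. Its mean moved between 14.6 and 30.9 FPKM over the 10 groups, and it was not called in any comparison with 0 h or between cultivars. Ah20g111700 overlaps Ah20g111800 on the opposite strand by 378 bases and had 0 to 4 counts in a library. No source used here says whether counting used strand, so reads of this overlap cannot be assigned to one of the pair.

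The surroundings of the 3 genes were examined because some stretches of chromosome differ between the cultivars as blocks at some of the times. The median cultivar difference of the 40 nearest tested genes lay between −0.203 and 0.103 (log2) for every gene and time. Elsewhere the cultivars differed over long runs of genes at 0 h, and windows of 41 genes reached a median of −6.29 on chromosome 12, −2.51 on chromosome 14, 1.22 on chromosome 17 and 2.03 on chromosome 1, the chromosome of Ah01g069800. The lowest window on chromosome 12, taken anew at each time, was −0.37, −0.20, −0.34 and −1.39 at 3, 12, 24 and 48 h. On chromosome 14 it was −0.38, −0.45, −1.20 and −0.24. The highest on chromosome 1 was 0.73, 0.22, 0.27 and 0.35. These differences were thus not constant over the groups, and why was not tested.

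The correlations among the 3 genes describe them only, since each was chosen for being higher in salt. Over the 30 libraries, which share the time course, Pearson's r of log2 CPM was 0.913 between Ah20g111800 and Ah01g069800, 0.894 between Ah20g111800 and Ah13g246900, and 0.914 between Ah01g069800 and Ah13g246900. The 5 tested genes with the highest r were taken for each.

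For Ah20g111800 the most alike was its partner Ah10g075400, with r = 0.993. Next came Ah20g094900 (r = 0.993) and Ah20g094800 (r = 0.992), annotated as UDP-glucosyltransferases, enzymes that attach glucose to small molecules. These overlap on chromosome 20, so their reads may not be separable. Ah20g094900 went from 22.5 FPKM at 0 h to 322 at 48 h in HY33 and from 26.7 to 281 in HY9115. Ah15g532600 (r = 0.992), annotated with oxidoreductase activity, and Ah10g059700 (r = 0.991), with no annotation, completed the 5.

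For Ah01g069800 the 5 were Ah05g347700 (r = 0.991), Ah18g031600 (r = 0.990), Ah20g430800 (r = 0.990), Ah07g020500 (r = 0.989) and Ah15g470800 (r = 0.989). Of these only Ah20g430800 is annotated, as a mitochondrial phosphate carrier, which brings phosphate into the organelle. The most alike, Ah05g347700, was far more abundant, from 67.4 FPKM at 0 h to 2791 at 48 h in HY33 and from 80.5 to 3570 in HY9115.

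For Ah13g246900 4 of the 5 are annotated as chaperones, proteins that keep others from misfolding. Ah09g005700 (r = 0.991) carries the orthology term of the Hsp70 family, Ah09g260000 (r = 0.990) and Ah19g028800 (r = 0.990) that of the small heat shock proteins, and Ah03g220300 (r = 0.991) the function protein folding chaperone. These terms are held by 89 of the tested genes, or 0.210%. The terms counted are those of the 4 genes themselves, so the share is no test of enrichment, and none was run. Ah11g366000 (r = 0.991) has no annotation. In HY33 at 3 h their means were 1.92, 0.0667, 0.913, 1.05 and 1.27 FPKM in the order named, against 33.9, 17.5, 25.4, 27.7 and 37.6 in HY9115. These 5 were chosen for following Ah13g246900 over libraries that include those at 3 h, so their low level there in HY33 is part of the choice.

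**Figure D4:**
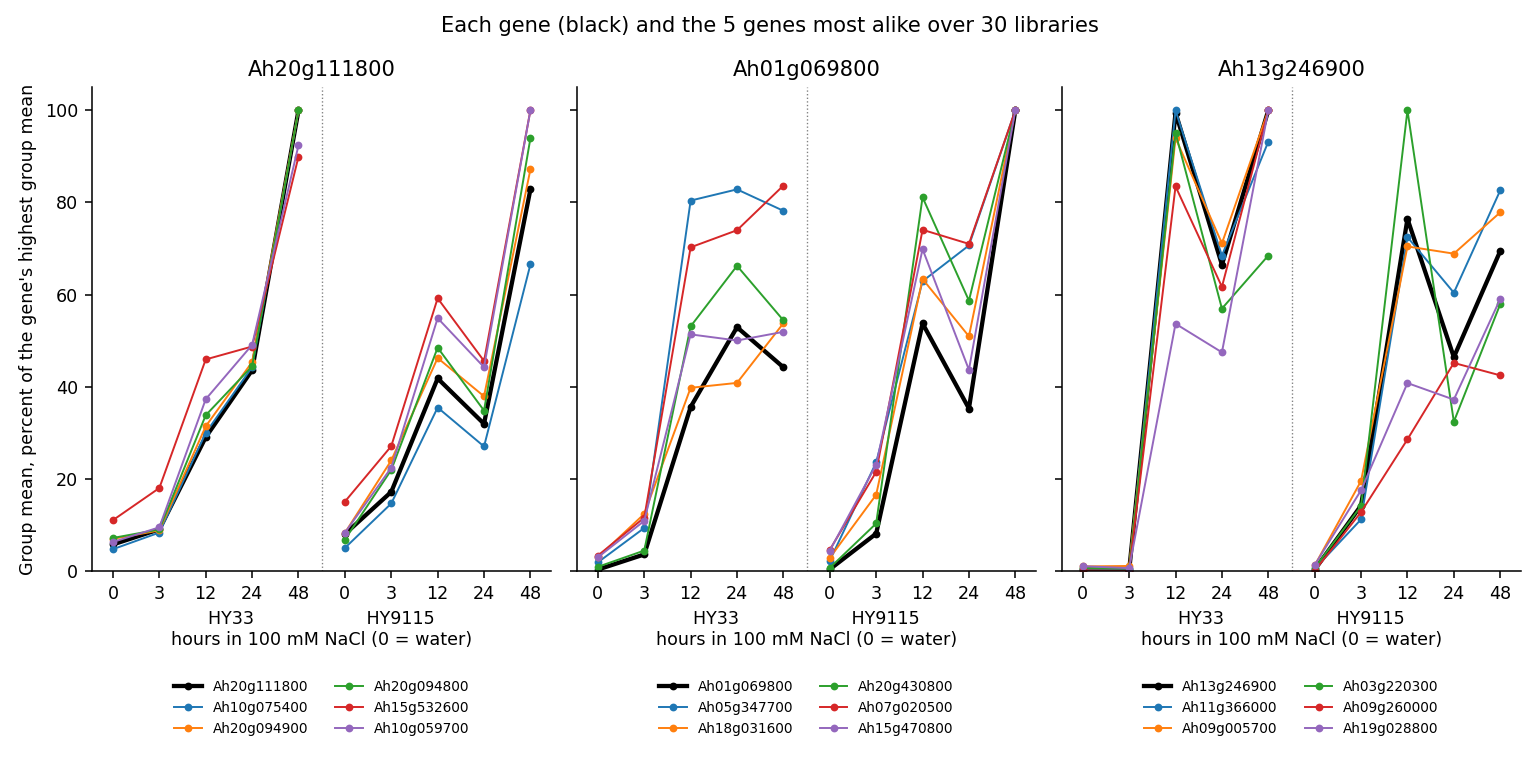
Group means of each of the 3 genes (black) and of the 5 genes with the highest correlation over the 30 libraries, as percent of each gene's highest group mean, by hours in 100 mM NaCl and by cultivar. In the panel of Ah13g246900 all 6 lines lie near 0 in HY33 at 3 h and between 11 and 20% in HY9115.

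Of the other 106 glutathione S-transferases that were tested, some rose and fewer fell at each time in salt. In HY33 21 rose and 2 fell at 3 h, 35 and 6 at 12 h, 42 and 7 at 24 h, and 56 and 9 at 48 h. Of all genes tested, 6.61, 11, 10.4 and 14.3% rose and 7.45, 12.9, 13.4 and 20.1% fell at these times in HY33. The list's median log2 change in HY33 was 0.05, 0.32, 0.64 and 1.11 at 3, 12, 24 and 48 h, and that of all genes at 48 h was −0.01. In HY9115 33 rose and 0 fell at 3 h, 37 and 4 at 12 h, 40 and 7 at 24 h, and 49 and 11 at 48 h. Of all genes, 8.27, 11.4, 9.2 and 14.5% rose and 6.43, 12.4, 10.5 and 21.3% fell. The list's median there was 0.33, 0.52, 0.36 and 0.91, lower at 24 h than at 12 h.

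The 3 genes were chosen for being higher in salt, so their high ranks by change from 0 h are part of that choice. Among the 109 with the 3 genes included, Ah13g246900 had the largest rise in every comparison except HY9115 at 48 h and HY33 at 3 h. In HY9115 at 48 h it ranked 2nd to Ah01g069800. In HY33 at 3 h it ranked 109th, on 6 against 19 counts with libraries that overlapped those at 0 h. Ah01g069800 ranked between 1st and 5th, and Ah20g111800 between 13th and 37th. Others with a large change were Ah12g185000, from 11.9 ± 1.74 FPKM to 532 ± 11.1 between 0 and 48 h in HY33, and Ah19g396400, from 15.8 ± 4.73 to 373 ± 31.9. Ah04g229100, among the 5 most abundant, went from 158 ± 10.5 to 913 ± 54.8. All 3 rose in both cultivars at 48 h.

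All 165 glutathione S-transferases together took 0.363 ± 0.0288% of counts in HY33 at 0 h and 2.36 ± 0.112% at 48 h. In HY9115 they took 0.395 ± 0.0193% and 2.04 ± 0.143%. The 3 genes held 13.7% of these counts at 0 h and 37.6% at 48 h in HY33, and 17.5% and 37.1% in HY9115. Ah20g111800 alone held 36.4% at 48 h in HY33 and 34.9% in HY9115. By mean FPKM among the 165, Ah01g069800 was 100th at 0 h in both cultivars, and 17th in HY33 and 9th in HY9115 at 48 h. Ah13g246900 was 104th and 106th at 0 h, and 25th and 31st at 48 h.

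Of all genes, 2.97, 2.06, 1.95, 2.41 and 5.97% were called higher in HY33 and 2.75, 3.78, 1.8, 2.75 and 3.06% lower at 0, 3, 12, 24 and 48 h. Between the cultivars, 8 of the other 106 were called lower and 0 higher in HY33 at 3 h, with a median of −0.31 against −0.02 over all genes. At the other times 2 or 3 were called, with 2 higher and 1 lower at 0 h, 3 lower at 12 h, 2 higher at 24 h, and 2 higher and 1 lower at 48 h. The 11 other tested genes with the same annotation terms as Ah01g069800 and Ah13g246900 had a median cultivar difference of −0.19 at 0 h, −0.45 at 3 h, −0.44 at 12 h, 0.39 at 24 h and 0.41 at 48 h. Of these, 1 was called higher at 0 h, 1 lower at each of 3, 12 and 48 h, and 0 at 24 h.

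Of 6 tested genes that make glutathione, 2 rose in HY33 at 12, 24 and 48 h and in HY9115 at 12, 24 and 48 h, and none fell at any time. Of all genes, 9.2 to 14.5% rose and 10.5 to 21.3% fell in these 6 comparisons. In HY9115 at 3 h 1 rose, against 8.27% of all genes. The list's median log2 change at 12, 24 and 48 h was 0.75, −0.25 and −0.01 in HY33 and 0.63, 0.78 and 1.01 in HY9115. In HY33 the rise was thus not shared by the list at 24 and 48 h. The gene described next is 1 of the 2 that rose. Ah03g379900, annotated as glutamate-cysteine ligase, the first enzyme of glutathione synthesis, went from 23.5 ± 1.12 to 115.5 ± 4.51 FPKM between 0 and 48 h in HY33, a log2 change of 2.67 ± 0.07 (adjusted p = 1.1e-26). In HY9115 its log2 change was 2.49 ± 0.06 (adjusted p = 4.1e-26).

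Of 6 tested glutathione reductase genes, which return oxidised glutathione to its reduced form, 3 rose at 48 h in each cultivar and none fell at any time. At 48 h 14.3% of all genes rose and 20.1% fell in HY33, and 14.5% and 21.3% in HY9115. Ah09g312600 went from 12.9 ± 1.28 to 137 ± 0.936 FPKM in HY33 and from 17.4 ± 0.864 to 202 ± 2.53 in HY9115. Ah06g146200, with 51.1 ± 4.22 FPKM at 0 h in HY33, was not called at 12, 24 or 48 h in either cultivar. Of 14 glutathione peroxidase genes, 3 rose and 1 fell at 48 h in HY33, and 3 rose and 0 fell in HY9115, against the same shares of all genes. With so few genes in the list, 3 of 14 is near the background. One of them, Ah03g381300, had log2 changes of 2.40 ± 0.08 and 2.07 ± 0.08.

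Of 14 ABCC transporter genes, the family that moves glutathione conjugates, 5 rose and 0 fell at 48 h in HY33, and 4 rose and 1 fell in HY9115. At that time 14.3% of all genes rose and 20.1% fell in HY33, and 14.5% and 21.3% in HY9115. Between the cultivars at 48 h, 2 of the 14, Ah07g024200 and Ah17g023000, were called lower in HY33 and 0 higher. Of all genes, 3.06% were called lower and 5.97% higher. Ah01g069800 was called lower at that time too, and a link was not tested. Ah07g024200 stood at 20.8 ± 3.41 FPKM in HY33 and 82.4 ± 29.8 in HY9115, a log2 difference of −1.85 ± 0.16 (adjusted p = 3.3e-11). Of 8 genes of glutathione breakdown 3 rose in HY33 and 4 in HY9115 at 48 h, and none fell. The shares of all genes that rose and fell at 48 h are those given above. Of 29 genes that supply cysteine, 7 rose and 3 fell in HY33 and 5 rose and 5 fell in HY9115 at 48 h, and the HY9115 counts are near those shares.

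The 30 libraries held 13072324 to 18788677 counts, and replicates differed by more than sampling noise. Markers of other tissues of the seedling moved over the same times. The summed share of 97 green shoot genes, for light-harvesting and photosystem proteins and the small subunit of RuBisCO, went from 3.30 to 3.35% of counts in the HY33 libraries at 0 h to 0.516 to 0.558% at 48 h, and from 2.51 to 2.83% to 0.474 to 0.520% in HY9115. Of the 68 tested, 59 fell at 48 h in HY33 and 57 in HY9115, against 20.1% and 21.3% of all genes. In HY33 the share was 2.35 to 2.65% at 3 h, 1.06 to 1.11% at 12 h and 1.54 to 1.64% at 24 h, against 1.30 to 1.48%, 1.17 to 1.27% and 1.61 to 1.82% in HY9115. Of the 97, 21 to 25 were at 0 in a group.

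The summed share of 46 seed reserve and cotyledon genes in HY33 was 0.115 to 0.135% at 0 h, 0.131 to 0.142% at 3 h, 0.242 to 0.303% at 12 h, 0.161 to 0.171% at 24 h and 0.126 to 0.152% at 48 h. In HY33 it was thus highest at 12 h, the first time at which Ah13g246900 was high there. Of the 28 tested, 16 rose and 0 fell at 12 h in HY33, against 11% and 12.9% of all genes. At 48 h the range of the share in HY33 overlapped that at 0 h, while Ah13g246900 was still high. At that time 11 of the 28 tested rose and 1 fell in HY33, and 11 rose and 10 fell in HY9115. Of all genes, 14.3% rose and 20.1% fell in HY33, and 14.5% and 21.3% in HY9115. The summed share thus does not give the course of every gene in the list. In HY9115 the share was 0.401 to 0.526% at 0 h, 0.338 to 0.367% at 3 h, 0.232 to 0.260% at 12 h, 0.131 to 0.145% at 24 h and 0.131 to 0.137% at 48 h. At 3 h, when all 3 genes were lower in HY33, this share was lower there too. At 24 h, when all 3 genes were higher in HY33, it was higher there. At 12 and 48 h the ranges of the cultivars overlapped. The share was also lower in HY33 at 0 h, when no cultivar difference of Ah01g069800 or Ah13g246900 was detectable. That of 24 root uptake genes was 0.0122 to 0.0124% in HY33 and 0.0168 to 0.0204% in HY9115 at 0 h, and 0.00373 to 0.00397% and 0.00378 to 0.00424% at 48 h. The part of tissue make-up in the values of the 3 genes was not tested.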

How the data were processed

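The submitters' processing notes name HISAT2 2.2.1, HTSeq 0.6.1, cutadapt 1.9.1 and DESeq2, with no order. The deposited table holds, for each library, the authors' read count of each gene as whole numbers, and nothing in the values points to a normalisation. Dividing a count by exonic length and library total gave the deposited FPKM in 100% of values (tolerance 0.005). No build, annotation release or strand setting is named in the sources used here, so reads of overlapping genes and of near-identical copies cannot be separated. Each of the 30 libraries was matched to its sample by column name, and groups came from the sample titles.

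Counts were tested with edgeR 4.0.16 (R 4.3.3) by glmQLFit and glmQLFTest, with TMM factors of 0.804 to 1.11, all 30 libraries and 1 coefficient per group. Tests covered the 42311 genes that reached 1 FPKM in 3 or more libraries, and all 3 described genes passed this filter, Ah13g246900 only through its salt groups. The design named limma for a table with FPKM only, and edgeR applied since counts were present. SEs were taken from the fitted change and its F statistic. Tables and figures were made with pandas 2.3.3 and matplotlib 3.10.9.

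The 3 genes and all lists were chosen with earlier results of these data known. Lists were defined by orthology and GO identifiers, and counts for them leave out the 3 genes. No gene was found for the dehydroascorbate reductase list. Named genes are the 3, the 5 tested genes most correlated with each (log2 CPM, prior count 2), annotated glutathione S-transferases within 20 annotated genes on each side, up to 2 genes per glutathione list by mean FPKM, and the 5 glutathione S-transferases with the highest mean and with the largest change at 48 h in each cultivar. From these, genes for the text were picked after their values were seen, as were the partner genes. Within groups the chi-square of the counts per degree of freedom was 2.05 to 8.07, so replicates differed beyond sampling noise.

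On simulated counts for HY33 against HY9115 at 3 h with 42311 genes, 83% of genes changed 2-fold and 100% changed 4-fold passed the p threshold. The changed genes, 100 for each size, were drawn only from genes above a minimum mean level. Each was simulated from its mean over all libraries. The rates thus do not cover counts as low as those of Ah13g246900 in HY33 at 3 h. Reads carry no molecular identifiers. Alternatives were other scalings, filters, tests and fits, and leaving out each library.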

Additional observations from a re-analysis of the deposited data

How the results depend on the processing

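The difference between HY33 and HY9115 kept its direction and its side of the p threshold in 118 of 120 alternative values of the 3 genes and in 86 of 90 with 1 library left out. The sign turned once, for Ah13g246900 at 0 h, whose uncalled difference of 0.314 ranged from −0.1 (without HY33 replicate 3) to 0.598 with 1 library left out. The exceptions with all libraries were Ah20g111800 at 48 h with limma on log2(FPKM + 1), at 0.273 (adjusted p = 0.067; range over its alternatives 4.2e-05 to 0.067), and Ah13g246900 at 12 h with only the 6 libraries compared, at 0.375 (adjusted p = 0.051; range 0.0016 to 0.051). With 1 library left out Ah13g246900 at 12 h ranged from 0.291 to 0.493 (adjusted p 0.0045 to 0.13). The cause was not tested. A log2 difference of 1 was passed by Ah20g111800 at 3 h without HY33 replicate 2 (−1.03) or HY9115 replicate 3 (−1.01). Same-numbered libraries of the cultivars at one time deviated from their group means with correlations of −0.036 to 0.106, 1 of 15 over 0.1. Because these were small, the numbers were not taken to pair libraries. The correlation was yet highest for the shared number in 9 of 15, every pair at 12 and 24 h among them. Whether libraries were paired is thus not settled. A fit with the replicate block changed no call of the 3 genes, with −6.842 for Ah13g246900 at 3 h and −1.051 for Ah01g069800 at 48 h, and called 2401, 2452, 1582, 2143 and 3787 genes at 0, 3, 12, 24 and 48 h.

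The number of genes called at 0, 3, 12, 24 and 48 h was 2417, 2474, 1590, 2182 and 3818. It was 1344, 1432, 842, 1090 and 2095 with an FPKM of at least 5, where fewer genes are tested, and 1423, 1362, 889, 1032 and 1486 with limma. The changes from 0 h moved by less than a combined SD in 88 of 96 alternatives and in all 144 with a library left out. This yardstick is the root of the summed squared SDs of log2 CPM in the 2 groups compared, so it is wider than the SD of either group. Scaling by total counts, which lowers the median of all genes at 48 h by 0.376 in HY33 and 0.260 in HY9115, gave 4.111 for Ah20g111800 and 7.085 for Ah01g069800 in HY33, and 3.368 for Ah20g111800 and 7.803 for Ah13g246900 in HY9115. A prior count of 2 put Ah13g246900 in HY9115 at 5.066, 7.583, 6.811 and 7.587 at 3, 12, 24 and 48 h. Depth limits Ah13g246900 most, since its base rests on 19, 15 and 6 counts in the groups at 0 h and in HY33 at 3 h.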
